A study of Mus musculus with 12 samples.

Results

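Acaa2 was represented by 1 linear RNA probe, A_51_P125260, out of 14286 probes analysed on a mouse circular RNA (circRNA) microarray, of which 50 were for linear RNA and 14236 for circRNA. The probe was found through the transcript identifier that the array files give it, and 44 of the 50 linear RNA probes could be paired with a gene symbol in this way. Acaa2 was selected on its measured signal in these 12 arrays, which was already known to differ between single arrays, so its levels are described here without any test. RNA came from the left ventricle (LV) of 12 C57BL/6J mice, 1 array per mouse, in 4 groups of 3. The TG groups carried GRK-beta1AR, a mutant beta-adrenergic receptor without GRK phosphorylation sites that was overexpressed specifically in the heart. The DTG groups carried GRK-beta1AR together with a miR-150 transgene driven by the CAG promoter, which is active in most cell types and is not restricted to cardiomyocytes. Mice of each genotype received vehicle (vehicle TG and vehicle DTG) or isoproterenol (ISO TG and ISO DTG), a beta-adrenergic agonist given by mini-osmotic pump at 3 mg/kg/day for 7 days. All 4 groups therefore carried the mutant receptor, and mice without it were not analysed here. Each group held 1 female and 2 males, aged 9 to 12 weeks at harvest.

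Acaa2 encodes the mitochondrial 3-ketoacyl-CoA thiolase, the enzyme of the last step of each turn of fatty acid beta-oxidation, in which acetyl-CoA is released and the fatty acid chain is shortened. The adult heart draws much of its ATP from this pathway, and transcripts of its enzymes are under the control of nuclear receptors such as PPAR-alpha. Total RNA had been treated with RNase R, which digests linear RNA and spares circRNA, before labeling. The Acaa2 signal was therefore that of linear transcript left after this step, and the extent of digestion in each sample was not analysed here. In whole LV, fewer cells of a type and less RNA per cell cannot be told apart.

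The array had few other probes against which Acaa2 could be set. Of 29 genes of a fatty acid oxidation list, 3 had a linear RNA probe: Acaa2, Cpt1a and Ppara. None of the 11 cardiomyocyte, 7 fibroblast, 5 endothelial or 5 macrophage markers had one, so the tissue label could not be checked from defining markers. Apoe was the only gene of a hepatocyte list of 4 with a probe. Probes for the miR-150 transgene and for the mutant receptor were not among the linear RNA probes.

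A set of 3 of the 12 arrays, ISO TG 1, ISO TG 2 and vehicle TG 3, stood apart from the others on a probe other than Acaa2. Levels are given as the log2 signal minus the 75th percentile of the circRNA probes of the same array, so a level of 0 is the signal at that percentile. On this scale Apoe, a lipid carrier protein made by liver, macrophages and other cells, was at 4.90, 4.97 and 4.81 on those arrays and between 1.96 and 2.52 on the other 9. The 75th percentile itself was 424 intensity units on vehicle TG 3, 80.3 on ISO TG 1 and 107 on ISO TG 2, against 105 to 171 on the other 9. These arrays belonged to both treatments of the TG genotype.

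The Acaa2 signal itself was measured with 10 spots per array. All 10 were flagged as well above background on every array, none was saturated, and 9 of the 120 spots were marked as outliers and left out. The same flag was also given to 20.0% to 27.3% of the negative control spots of an array, so it is a weak mark of detection. In vehicle TG mice the mean signal was 217, 472 and 342 intensity units. In ISO TG mice it was 40.9, 48.2 and 294. Thus a pair of the 3 ISO TG arrays carried the lowest signals of the 12, and the third ISO TG array lay among the rest.

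In vehicle DTG mice the signal was 499, 315 and 660 intensity units. In ISO DTG mice it was 377, 301 and 299. All 6 DTG arrays were thus brighter than the third ISO TG array, and the highest signal of the 12 was in a vehicle DTG mouse. On ISO TG 1 the signal was 0.818 times that of the brightest negative control probe, although the median negative control spot gave between 1.04 and 1.29 intensity units on the 12 arrays. The ratio was 1.96 on ISO TG 2 and between 5.06 and 39.9 on the other 10 arrays.

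After scaling, the Acaa2 level in vehicle TG mice was 0.75, 1.83 and -0.31, with a mean of 0.76 ± 1.07 (SD, n = 3). In ISO TG mice it was -0.97, -1.14 and 1.49, with a mean of -0.21 ± 1.47 (SD, n = 3). The TG arrays were therefore spread widely within both treatments, and the ISO TG mouse that was high lay above vehicle TG 1 and vehicle TG 3. In vehicle DTG mice the level was 1.74, 1.21 and 1.95, with a mean of 1.63 ± 0.38 (SD, n = 3). In ISO DTG mice it was 1.42, 1.22 and 0.93, with a mean of 1.19 ± 0.24 (SD, n = 3). All 6 DTG arrays were above 4 of the 6 TG arrays, and ISO TG 3 and vehicle TG 2 lay among them.

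**Figure D1:**
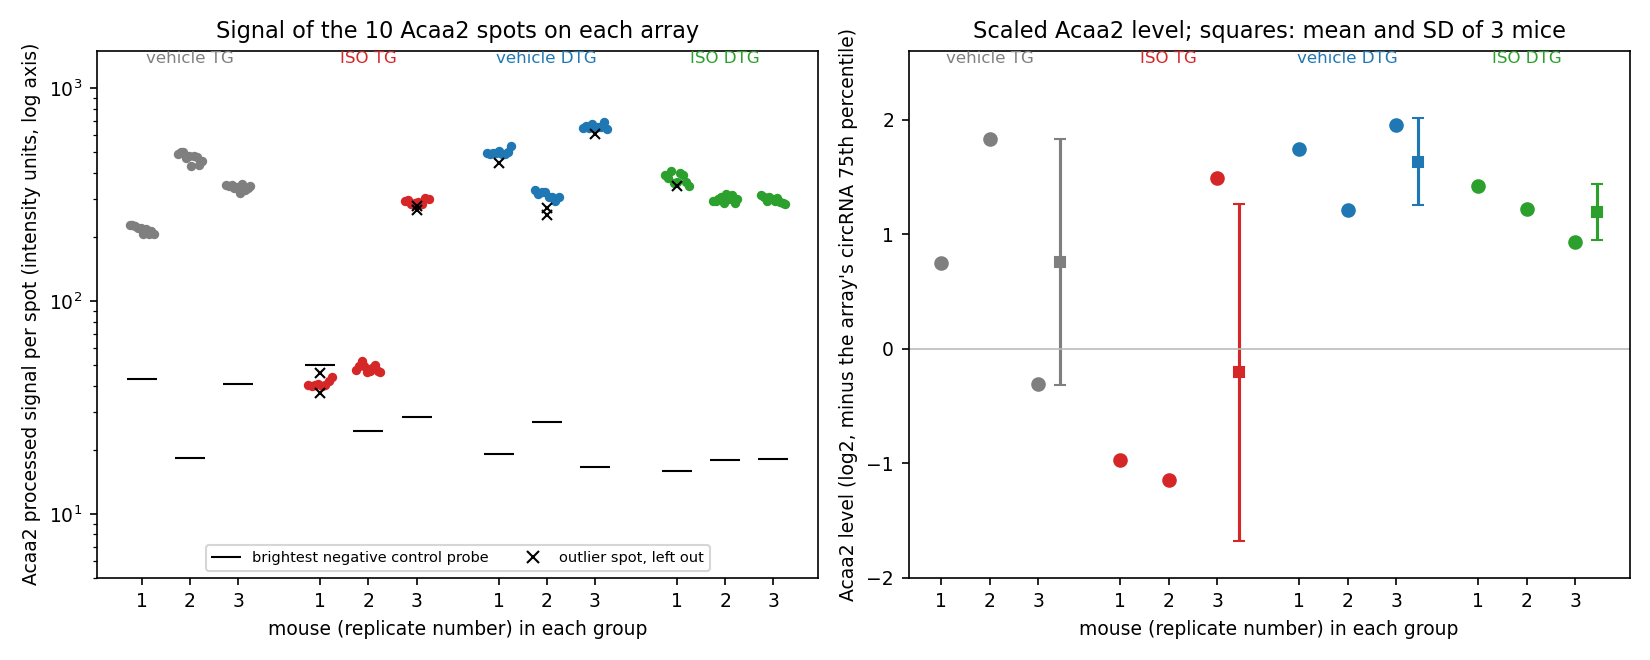
Left, processed signal of each of the 10 Acaa2 spots per array in intensity units on a log axis, with outlier spots as crosses and the brightest negative control probe of each array as a dash. Right, the scaled level per array (log2, minus the 75th percentile of the array's circRNA probes), with the mean and SD of the 3 mice of each group as squares and bars; ISO TG 1 and 2 are at -0.97 and -1.14, vehicle TG 3 is at -0.31, and the other 9 arrays lie between 0.75 and 1.95.

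The spread between mice was far larger than that between spots. The SD over the spots of 1 array was between 0.03 and 0.08 on the log2 scale. The SD between the 3 mice was 18.6 times the median spot SD in vehicle TG, 31.9 times in ISO TG, 9.87 times in vehicle DTG and 5.07 times in ISO DTG. The wide range of Acaa2 in TG mice was thus a difference between samples or arrays and not between spots. Spots of 1 array share an RNA sample and add no replicates.

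The first question was how Acaa2 differed with chronic ISO in TG hearts. With ISO, the mean level of the TG mice was lower by 0.97 ± 1.05 on the log2 scale (difference ± SE), a 1.95-fold lower geometric mean. This difference was below the pooled SD between mice of 1.29, and the arrays of the groups overlapped. Groups did not overlap for 9.91% of the circRNA probes and 12.0% of the linear RNA probes in this comparison. Acaa2 was lower in ISO TG while the median difference of the 49 other linear RNA probes was 0.20, and 3 of those 49 had a more negative difference. Without scaling, the Acaa2 difference was -1.97.

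The value rested on single arrays. It was -1.82 without ISO TG 3 and -1.50 without vehicle TG 3. It was -0.58 without ISO TG 1, -0.50 without ISO TG 2 and -0.43 without vehicle TG 2. When ISO TG 1, ISO TG 2 and vehicle TG 3 were all left out, the difference was 0.20, in the opposite direction, with 1 ISO TG array at 1.49 against vehicle TG arrays at 0.75 and 1.83. These are also the 3 arrays with the lowest Acaa2 level, so this omission leaves out low values by construction and is given as a description. The sign without them depended on the processing, with -0.12 for the unscaled signal and -0.11 with scaling by the circRNA control probes. It was -0.69 with normexp background correction, a model-based alternative to subtraction, and 0.09 when that was fitted without spots of bright local background.

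The second question was how miR-150 overexpression was associated with Acaa2 under ISO. Under ISO, the mean of the DTG mice exceeded that of the TG mice by 1.40 ± 0.86 on the log2 scale, a 2.63-fold difference, against a pooled SD of 1.06. The 3 ISO DTG arrays lay between the low and the high arrays of ISO TG, so the groups overlapped, whereas they did not overlap for 45.3% of the circRNA probes and 54.0% of the linear RNA probes. The median of the 49 other linear RNA probes was -0.67, and 38 of the 49 were lower in ISO DTG. Acaa2 differed in the other direction, and 2 of those 49 had a larger positive difference. Because this comparison uses the same ISO TG arrays as the first, a low value in those arrays enters both with opposite sign. It was 2.25 without ISO TG 3 and 0.93 without ISO TG 2. Without the 3 arrays that stood apart the difference was -0.30, with the single remaining ISO TG array above all 3 ISO DTG arrays. This sign, too, depended on the processing, as the difference without them was 0.14 for the unscaled signal and 0.07 with scaling by the median of the other linear RNA probes. On the unscaled log2 signal the groups did not overlap, with ISO DTG at 8.23 to 8.56 and ISO TG at 5.36 to 8.20. Neither did they for 6655 of 12943 circRNA probes, against 5869 after scaling. The groups of Acaa2 did not overlap either with normexp background correction, where ISO TG 3 was at 0.31 and ISO DTG at 0.74 to 1.09. The difference there was 1.19 ± 0.31 over all arrays and 0.61 without the 3. The share of circRNA probes without overlap was not counted under this correction. In that correction, 20 spots with a bright local background on ISO TG 3 set the fitted background mean to -283 intensity units, against -14.0 without them. Fitted without such spots, ISO TG 3 was at 1.09, level with the highest ISO DTG array, and the difference was 0.93 ± 0.56. Slides were inferred from the scan identifier of each array, and arrays with the same identifier are taken here as sharing a slide. All 3 ISO DTG arrays shared a slide in this sense, and all 3 ISO TG arrays shared the other. Slide and genotype under ISO thus cannot be told apart within slides. A term for the slide gave 0.92 ± 1.46, with an SE that pools the spread of all groups. Vehicle DTG was the only group on both slides, with vehicle DTG 3 on the slide of ISO DTG. The slide term thus rests on the vehicle DTG arrays alone.

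In DTG hearts the mean was lower with ISO than with vehicle by 0.44 ± 0.26 on the log2 scale, a 1.36-fold difference, against a pooled SD of 0.32. The difference exceeded the spread between mice, but the groups overlapped, as ISO DTG 1 at 1.42 and ISO DTG 2 at 1.22 were above vehicle DTG 2 at 1.21. Groups did not overlap for 19.6% of the circRNA probes and 6.0% of the linear RNA probes. The 49 other linear RNA probes had a median difference of -0.20, with 34 of the 49 lower in ISO DTG. Of the 49, 9 had a more negative difference than Acaa2. None of the arrays that stood apart entered this difference of means. It was -0.28 without vehicle DTG 3 and -0.66 without vehicle DTG 2, the ends of its range when 1 array was left out. Within the slide that held both groups the difference was -0.76, against 1 vehicle DTG array. With age as a term it was -0.11 ± 0.82, from a model of all 12 arrays with a common age slope. The TG arrays, and so those that stood apart, entered that value. Among them, vehicle TG 3 was 12 weeks old at a level of -0.31. Vehicle TG 1 and 2 were 9 weeks old at 0.75 and 1.83. Ages in ISO DTG were 10, 11 and 12 weeks for levels of 1.42, 1.22 and 0.93, whereas all 3 vehicle DTG mice were 10 weeks old, so age and ISO overlap in this genotype and their parts were not tested.

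Under vehicle, the mean was higher in DTG than in TG by 0.87 ± 0.66 on the log2 scale, a 1.83-fold difference, against a pooled SD of 0.80. Vehicle TG 2 at 1.83 lay above 2 of the 3 vehicle DTG arrays, so the groups overlapped. Groups did not overlap for 6.01% of the circRNA probes and for 0.0% of the linear RNA probes. The median of the 49 other linear RNA probes was -0.19, and 1 of the 49 had a larger positive difference than Acaa2. Without vehicle TG 3 the difference was 0.34, and without vehicle TG 2 it was 1.41. All TG arrays were on the same slide, together with vehicle DTG 1 and 2, whereas vehicle DTG 3 was on the other. Within the slide of the TG arrays the difference was 0.72 ± 0.67. The vehicle TG arrays of this comparison are those of the first.

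The ISO difference in DTG minus that in TG was 0.52 ± 1.08 on the log2 scale. The SE exceeded the value under this scaling. This difference was -0.015 without vehicle TG 2 and 1.37 without ISO TG 3, and without the 3 arrays that stood apart it was -0.64. Over all 12 arrays the value exceeded its SE without scaling (1.43 ± 1.02), with control probes (1.15 ± 1.02) and with normexp background correction (0.66 ± 0.64). Under the other scalings and background corrections it was below its SE. A difference between the genotypes in the response of Acaa2 to ISO thus depended on processing and single arrays, and was not resolved with these 12 arrays.

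Ordered by mean level, the groups ran from vehicle DTG through ISO DTG and vehicle TG to ISO TG. Vehicle DTG was above ISO DTG by 0.44 with a pooled SD of 0.32, ISO DTG above vehicle TG by 0.43 with a pooled SD of 0.78, and vehicle TG above ISO TG by 0.97 with a pooled SD of 1.29. Neighbours overlapped at every step, and for the latter pair of steps the difference was within the spread between mice. Without scaling and with scaling by the circRNA control probes, vehicle TG lay above ISO DTG, and ISO TG was lowest under each scaling used. Without the 3 arrays, the means were 1.63 in vehicle DTG, 1.19 in ISO DTG and 1.29 in vehicle TG (n = 2), and the remaining ISO TG array was at 1.49.

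**Figure D2:**
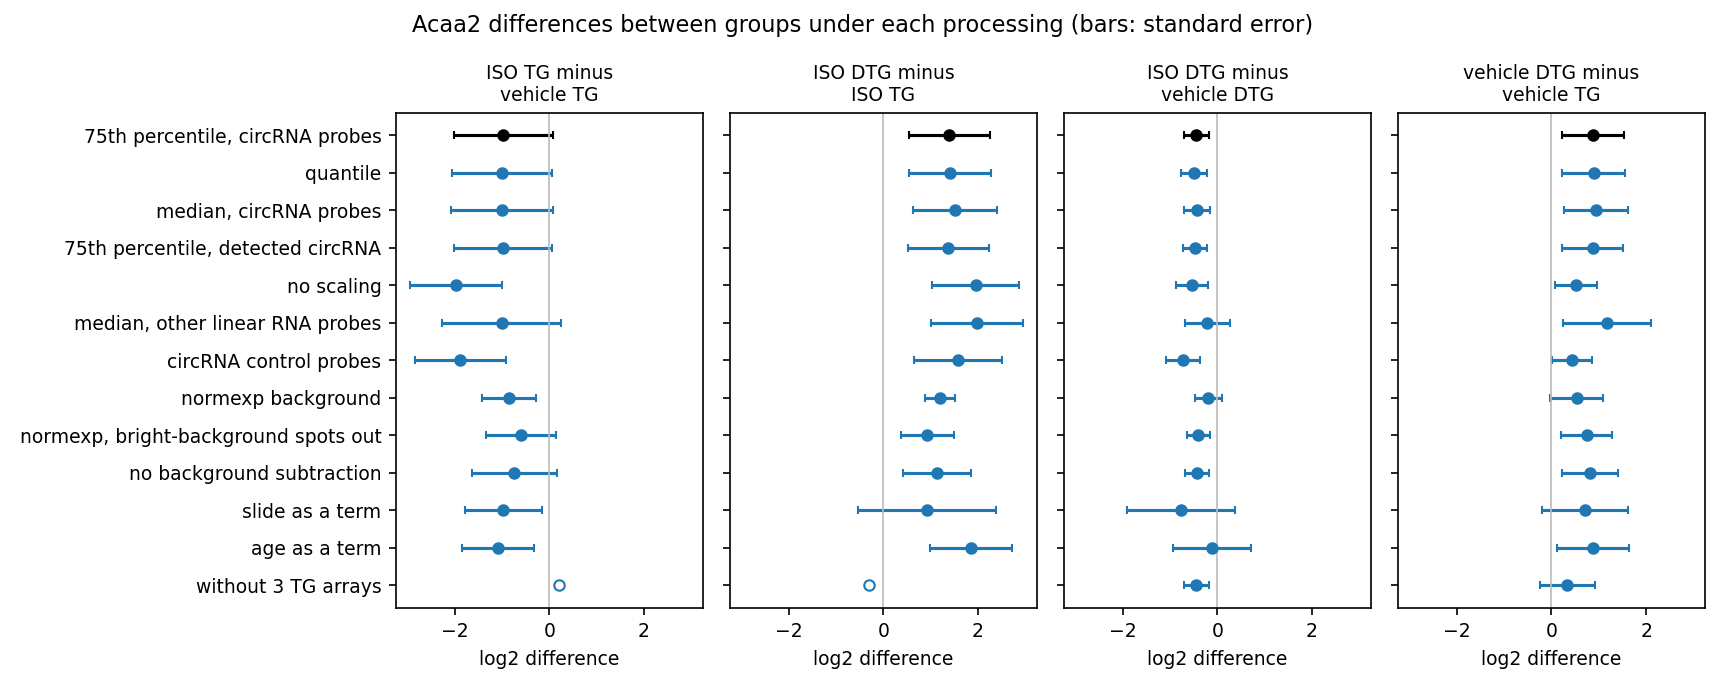
Log2 difference of the Acaa2 level (horizontal axis) for the 4 comparisons under the scaling used throughout (black) and 12 other ways of processing (blue), with bars for the SE; the SE with slide or age as a term pools the spread of all 4 groups. Open circles are values with 1 array in the ISO TG group and no SE; the first and second comparisons change sign there, to 0.20 and -0.30.

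How low the 3 arrays were depended on the scaling. On the unscaled log2 signal, ISO TG 1 and 2 stayed below the other arrays, whereas vehicle TG 3 at 8.42 lay inside the range of 7.76 to 9.37 of the other 9. Its scaled level of -0.31 was low because its circRNA 75th percentile was the highest of the 12 arrays. The 14 circRNA control probes had a mean scaled level of -0.06 on vehicle TG 3 and of 1.36 to 2.24 on the other 11 arrays. When each array was scaled by these control probes, Acaa2 spanned -3.38 to -0.25 on the 3 arrays and -0.98 to 0.60 on the other 9, so that the ranges overlapped. When each array was scaled by the median of its other linear RNA probes, vehicle TG 3 was at 1.69, below 2.55 to 4.69 on the other 9. The low Acaa2 of ISO TG 1 and 2 was thus present with and without scaling. That of vehicle TG 3 was present relative to the 75th percentile of the circRNA probes or to the other linear RNA probes, and absent from the unscaled signal and relative to the control probes.

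A ratio of 2 probes on the same array does not change when a common value is taken off every probe, as in the scaling used throughout. It can change with quantile normalization or another background correction. The log2 ratio of Acaa2 to Apoe was between -6.11 and -5.12 on ISO TG 1, ISO TG 2 and vehicle TG 3 and between -1.77 and -0.0035 on the other 9 arrays. The ratio of Acaa2 to Hspb7, a small heat shock protein of heart and skeletal muscle, was between -5.82 and -4.70 on the 3 arrays and between -4.20 and -2.96 on the others. Because the 3 arrays were set apart by their high Apoe, a low ratio to Apoe there is largely fixed by that choice. Such a ratio shows unequal change of the pair and not which of them changed.

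Among the fatty acid oxidation genes, Ppara encodes PPAR-alpha, the nuclear receptor that activates genes of mitochondrial and peroxisomal fatty acid oxidation. Its level was 2.24, 2.26 and -0.44 in vehicle TG, and 0.02, 0.17 and 1.96 in ISO TG. In vehicle DTG it was 1.63, 2.18 and 1.62, and in ISO DTG 2.25, 2.14 and 2.56. Ppara was thus low on the same 3 arrays as Acaa2, and without scaling it remained lower there (6.35 to 8.29) than on the other 9 (8.67 to 9.85). The log2 ratio of Acaa2 to Ppara was between -1.32 and 0.13 on the 3 arrays and between -1.63 and 0.33 on the others, so these probes were low together there.

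On the other 9 arrays, Acaa2 and Ppara varied in opposite directions. Pearson's r between their levels was 0.81 over the 12 arrays and Spearman's rho 0.34, and r was -0.69 over the 9 arrays. In DTG hearts the ISO difference of Ppara was 0.50 ± 0.23 (log2, difference ± SE), against -0.44 ± 0.26 for Acaa2. Between ISO DTG and ISO TG, Ppara differed by 1.60 ± 0.63 and Acaa2 by 1.40 ± 0.86. The likeness over 12 arrays thus rested on the arrays that stood apart.

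Cpt1a encodes the liver form of carnitine palmitoyltransferase, which admits long-chain fatty acids to mitochondria and is accompanied in the adult heart by the muscle form. Its level was -1.27 on ISO TG 1, -0.50 on ISO TG 2 and 0.45 on vehicle TG 3, and between -0.66 and 0.33 on the other 9 arrays. It was lowest on ISO TG 1 and highest on vehicle TG 3, so that Cpt1a was not low on all 3 arrays. On the unscaled log2 signal it was 5.05 on ISO TG 1 and 6.24 on ISO TG 2, both below 6.39 to 7.64 on the other 9, and 9.18 on vehicle TG 3. Its r with Acaa2 was 0.40 over the 12 arrays, with a rho of 0.27, -0.29 without ISO TG 1 and 2, and 0.31 over the 9 arrays, and it was 0.64 on the unscaled signal over the 12 arrays. The log2 ratio of Acaa2 to Cpt1a was between -0.76 and 0.30 on the 3 arrays and between 1.08 and 2.49 on the others. The difference of the mean Cpt1a level was -0.42 ± 0.48 for ISO TG minus vehicle TG and 0.56 ± 0.40 for ISO DTG minus ISO TG. It was -0.11 ± 0.25 for ISO DTG minus vehicle DTG and 0.26 ± 0.37 for vehicle DTG minus vehicle TG. After scaling all 4 thus had the sign of those of Acaa2, and all but ISO DTG minus ISO TG were smaller than their SE. On the unscaled signal, vehicle DTG minus vehicle TG was -0.10 for Cpt1a and 0.52 for Acaa2, and the other comparisons kept a shared sign. Of the 3 measured genes of the list, Acaa2 and Ppara were thus low together on all 3 arrays after scaling. Cpt1a was low on ISO TG 1 and high on vehicle TG 3 with and without the scaling used throughout. On ISO TG 2, Cpt1a was below the other 9 arrays on the unscaled signal and inside their range after that scaling.

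**Figure D3:**
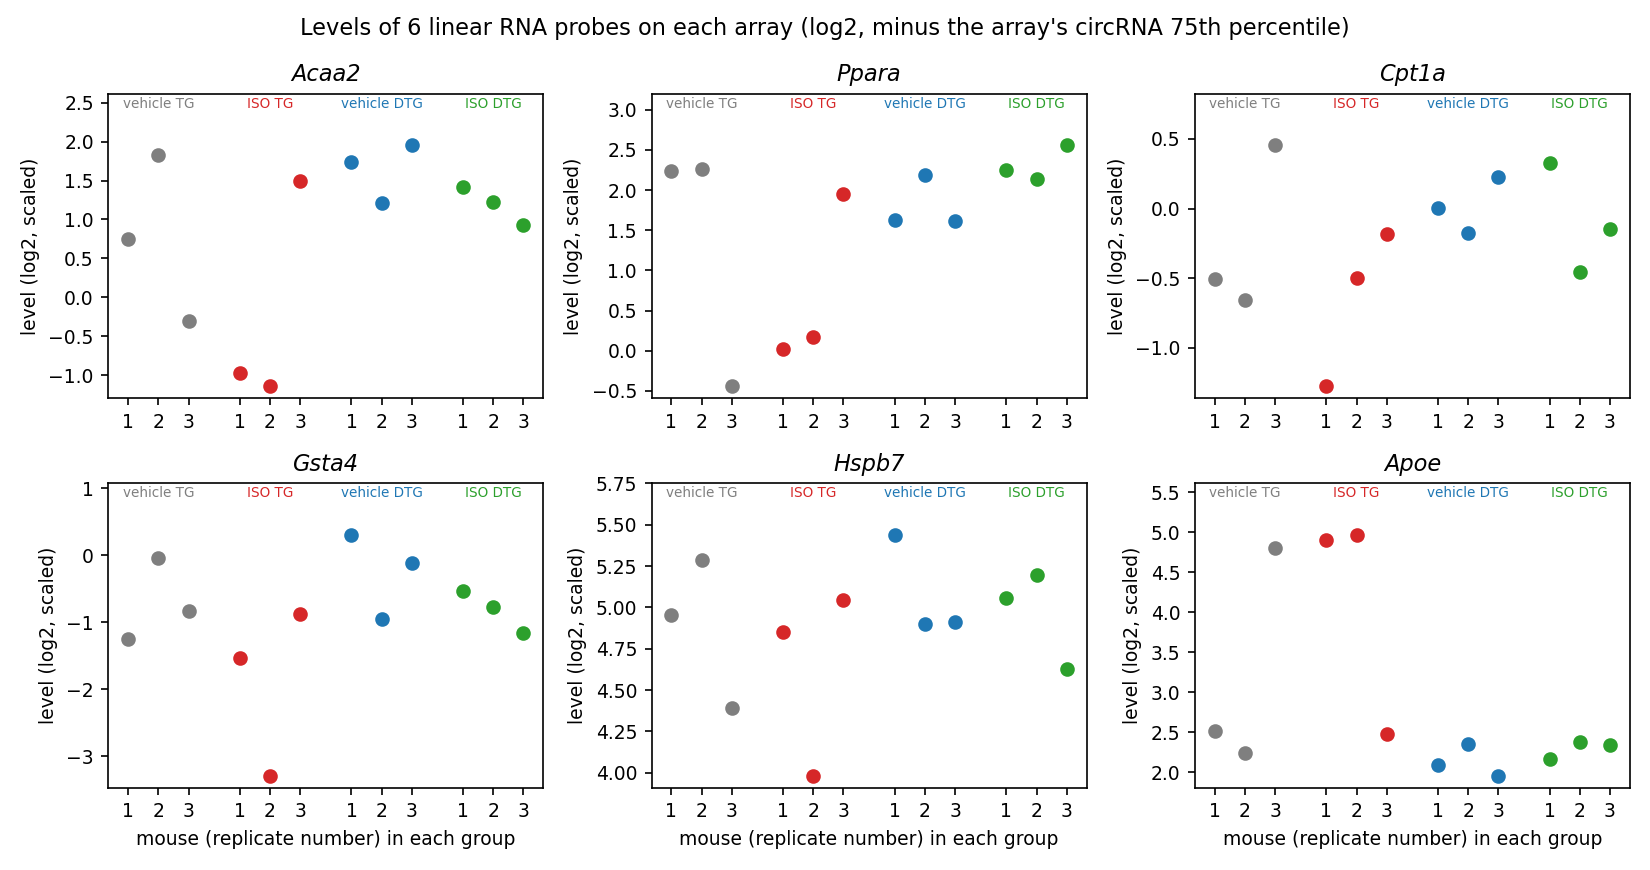
Level of 6 linear RNA probes (log2, minus the 75th percentile of the array's circRNA probes) on each of the 12 arrays, by group; each panel has its own vertical axis and levels are not to be compared between panels. Apoe is at 4.81 to 4.97 on vehicle TG 3 and ISO TG 1 and 2 and at 1.96 to 2.52 elsewhere, and Acaa2 and Ppara are lowest on those arrays.

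The linear RNA probes most like Acaa2 across the 12 arrays were, by Pearson's r, Gsta4 (0.82), Ppara (0.81), Hspb7 (0.77), Taf1a (0.63) and Prdx2 (0.61). These arrays share slides, RNase R treatment and labeling, and r is given as a description. Gsta4 encodes a glutathione transferase that detoxifies aldehydes from lipid peroxidation, and its rho with Acaa2 was 0.87. Its r was 0.63 without the 2 arrays with the most extreme Acaa2 levels, ISO TG 1 and 2, and 0.89 over the 9 arrays. Gsta4 thus followed Acaa2 also where the 3 arrays were left out.

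The Gsta4 level was -1.53, -3.29 and -0.88 in ISO TG and -0.53, -0.77 and -1.15 in ISO DTG. It was lower with ISO in DTG by 0.56 ± 0.41 on the log2 scale and in TG by 1.19 ± 0.80. Unlike Acaa2, it was not low on vehicle TG 3, where it lay inside the range of the other vehicle TG arrays. For Hspb7 the rho was 0.76, with r of 0.78 without ISO TG 1 and 2 and 0.54 over the 9 arrays. Its levels on the 3 arrays, 3.98 to 4.85, overlapped with 4.63 to 5.44 on the others.

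Taf1a, a subunit of an RNA polymerase I factor, had an r of 0.39 without ISO TG 1 and 2 and 0.63 over the 9 arrays. Prdx2, a peroxiredoxin that reduces peroxides, had 0.32 and 0.02. With normexp background correction, r over the 12 arrays was 0.10 for Taf1a and 0.38 for Prdx2, or 0.21 and 0.55 without the spots of bright local background, and without background subtraction it was 0.30 and 0.57. Their likeness to Acaa2 thus depended on the background step. Group means of Taf1a lay between -1.70 and -1.53 and those of Prdx2 between -0.63 and -0.23.

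At the other end were Apoe with an r of -0.96 and a rho of -0.87, and Lhx1, a homeobox transcription factor of development, with -0.86 and -0.71. For Apoe, r was -0.89 without ISO TG 1 and 2 and -0.76 over the 9 arrays. The inverse pattern of Apoe and Acaa2 thus remained without the arrays that stood apart. It depended on the scaling, as r was -0.47 on the unscaled signal. For Lhx1, r was -0.48 without ISO TG 1 and 2 and -0.43 over the 9 arrays.

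Of the 49 other linear RNA probes, 10 had a positive and 39 a negative r with Acaa2, with a median of -0.34. Without scaling, 26 were positive and 23 negative, with a median of 0.04. The balance of signs was thus set by the scaling, which subtracts the same value from every probe of an array.

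**Figure D4:**
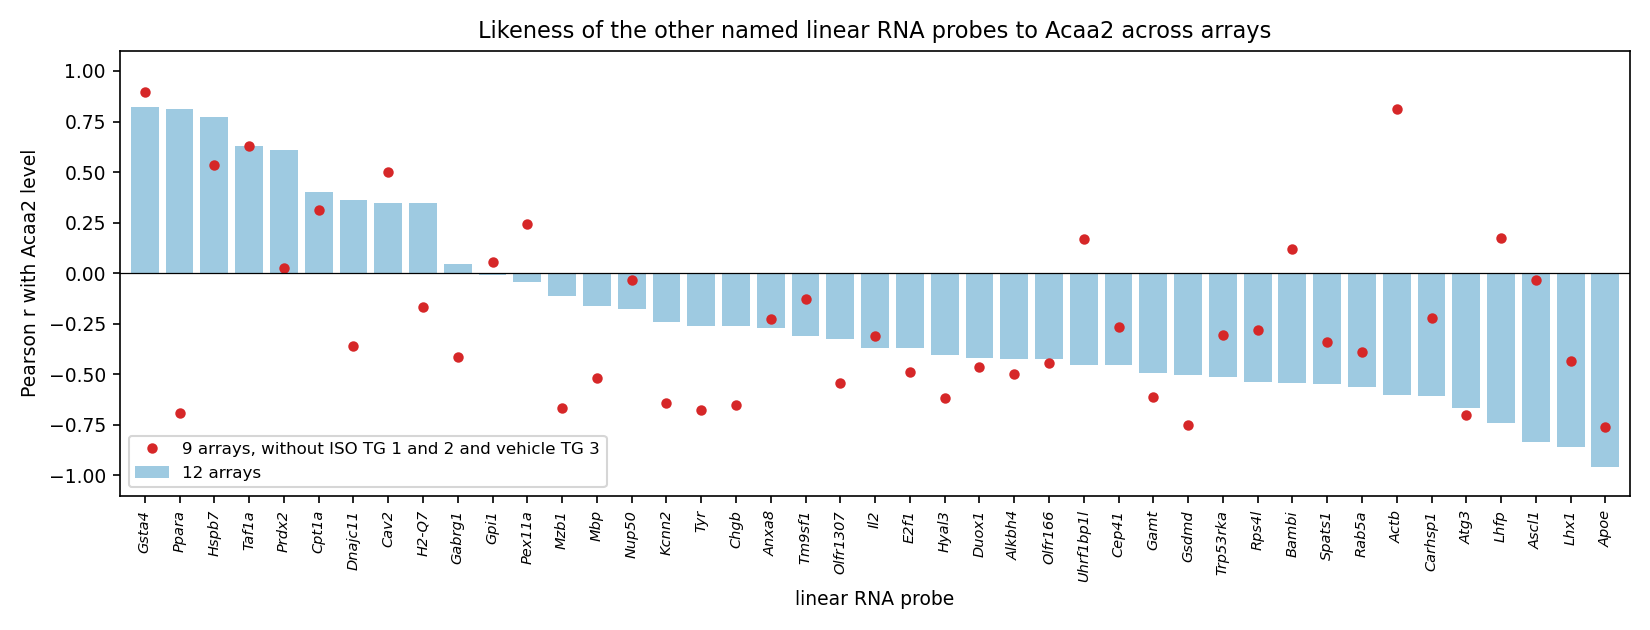
Pearson's r with the Acaa2 level for each other linear RNA probe with a gene symbol, over the 12 arrays (bars) and over the 9 arrays without ISO TG 1 and 2 and vehicle TG 3 (points). Gsta4 is at 0.82 and 0.89, Ppara changes sign from 0.81 to -0.69, and Apoe is at -0.96 and -0.76.

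The circRNA probes showed how the Acaa2 level lay relative to the main differences between arrays. Over 12899 circRNA probes, r with Acaa2 had a median of -0.14 and was above 0.9 for 215 probes and below -0.9 for 138. The leading component of the circRNA probes held 44.8% of their variance and the second 27.8%. The sign of each component was set so that its weights correlate positively with the Acaa2 level, so the sign itself carries no information. On the leading component, ISO TG 1 and 2 were at -0.51 and -0.32 together with vehicle TG 1 at -0.42, and vehicle TG 3 was at the opposite end at 0.53. Weights on the second were -0.35 for ISO TG 1, -0.29 for ISO TG 2 and -0.74 for vehicle TG 3, and between 0.05 and 0.24 for the other 9 arrays. The arrays with a low Acaa2 level thus lay on one side of the second component and not of the first, and the part of these array differences in the low Acaa2 level was not tested.

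**Figure D5:**
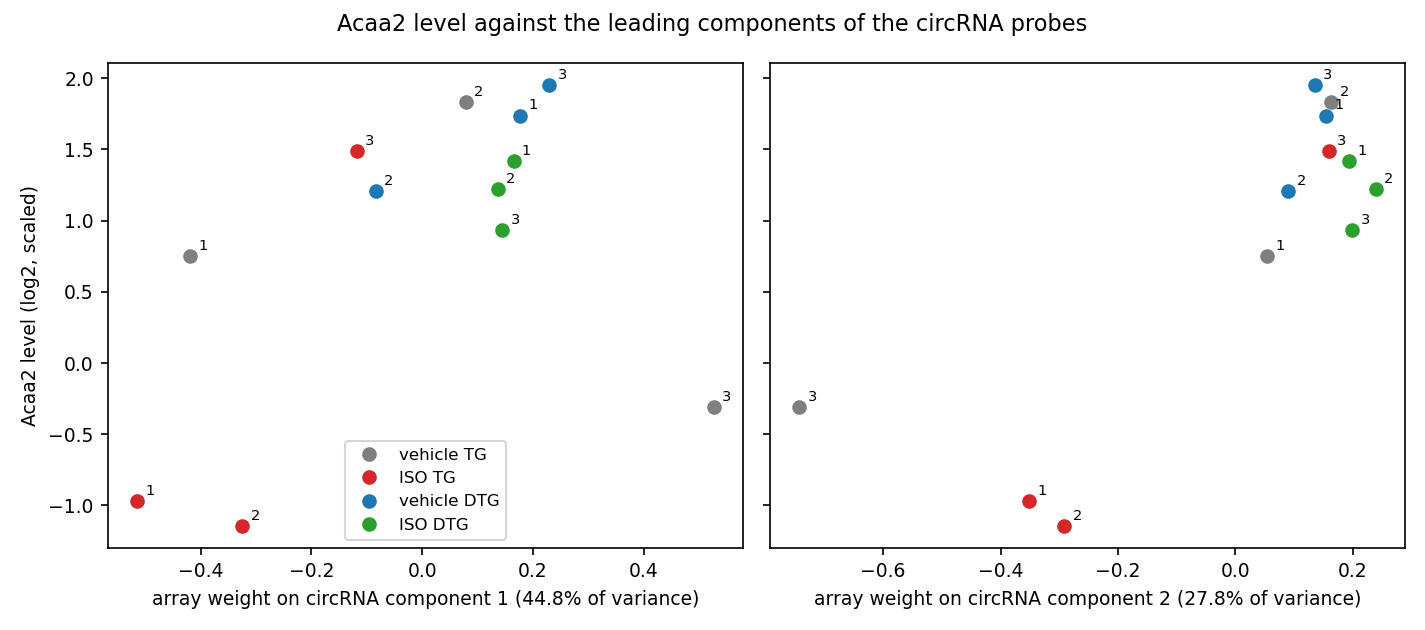
Acaa2 level (log2, scaled, vertical axis) against each array's weight on the first (left) and second (right) component of the circRNA probes, colored by group and numbered by mouse. The sign of each component was set so that its weights correlate positively with the Acaa2 level. ISO TG 1 and 2 and vehicle TG 3 have negative weights on the second component, from -0.74 to -0.29, and Acaa2 levels below 0.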

How the data were processed

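The authors treated LV total RNA with RNase R, labeled it and hybridised it to Arraystar mouse circRNA arrays, and deposited the spot intensity values written by Agilent Feature Extraction (version 11.0.1.1), background-corrected by that software and not normalised between arrays. The submitters' processing notes also name limma, and a normalisation is not given in the sources used here. Here the deposited intensity was converted to log2, outlier spots were left out, the 10 spots of a linear RNA probe were averaged, and the array's 75th percentile of the 14236 circRNA probes was taken off. Symbols came from RefSeq through the transcript identifiers. The coordinates of Acaa2 are not given because the genome builds of array and table differ, and no sequence is shown.

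The labels gave the groups, replicate numbers, sexes and ages, and the study's methods the dose and duration. Slides were inferred from the scan identifier of each array. Acaa2, the gene lists and the alternatives were chosen with earlier results of these data known. Named genes were Acaa2, the 5 linear RNA probes with the highest r and the 2 with the lowest, and the measured fatty acid oxidation genes. Actb was added after its values were seen. No test was run on Acaa2. The share of probes whose groups do not overlap was counted among circRNA probes well above background on at least 3 arrays. Precision is limited by there being 3 mice, and so 3 arrays, in a group. Same-numbered arrays had deviations correlated between -0.37 and 0.36, with 3 of 12 pairs above 0.1. Values for differently numbered arrays are not given here, so this cannot decide whether the numbers pair the mice. The differences treat the mice as unpaired. The normalisation and overlap steps were tested on simulated data. Alternatives changed scaling, background, spots, slide, sex, age and arrays. R 4.3.3, limma 3.58.1 (background and quantile steps), Python 3.11.15 and matplotlib 3.10.9 were used.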

Additional observations from a re-analysis of the deposited data

How the results depend on the processing

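Across the other scalings, background corrections and spot rules, the 4 differences and the genotype difference in ISO response kept their direction. They ranged from -1.97 to -0.59 for ISO TG minus vehicle TG, 0.93 to 1.98 for ISO DTG minus ISO TG, -0.73 to -0.19 for ISO DTG minus vehicle DTG, 0.44 to 1.18 for vehicle DTG minus vehicle TG, and 0.19 to 1.43 for the genotype difference. Scaling also moved the median difference of the circRNA probes, which for ISO TG minus vehicle TG was 0.09 as reported and -0.92 without scaling. Without ISO TG 1 and 2 and vehicle TG 3, chosen after seeing the data, the first became 0.20, the second -0.30 and the genotype difference -0.64, and these signs did not hold under every processing. With age as a term, ISO DTG minus vehicle DTG moved to -0.11. Leaving out 1 array gave -1.82 to -0.43, 0.93 to 2.25, -0.66 to -0.28, 0.34 to 1.41 and -0.015 to 1.37 in the same order, and the genotype difference was -0.015 without vehicle TG 2. Pearson's r of Ppara with Acaa2 was -0.69 without the 3 arrays. With the replicate number as a block, the differences were identical (-0.97, 1.40, -0.44, 0.87 and 0.52) and the SE from a model that pools the spread of all 4 groups, unlike the SEs given above, was 0.87 with the block and 0.77 without it, or 1.24 and 1.08 for the genotype difference. A term for sex left the differences as they were. Male mice alone gave -0.59, 1.15, -0.26, 0.82 and 0.33. The circRNA probes without overlap for ISO TG against vehicle TG rose from 1282 to 3439 without scaling and 2843 with control probes, and for vehicle DTG against vehicle TG fell from 777 to 483 without scaling and 286 with the median of the other linear RNA probes. A normexp fit without spots of bright local background was added after seeing the data. Besides ISO TG 3, such spots moved the fitted background mean on vehicle DTG 2 (-132 against -3.77 intensity units without them) and vehicle DTG 3 (-113 against -7.00). The value of -0.19 for ISO DTG minus vehicle DTG came from normexp with these spots, and it was -0.40 without them. Background correction planned on the mean spot signal was not run as planned, and the median spot signal took its place. The Acaa2 signal of ISO TG 1 and 2 was 0.818 and 1.96 times that of the brightest negative control probe, so background limits how precisely their low level is known.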

Other observations

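By sex, the single female and the mean of the 2 males had Acaa2 levels of 0.75 and 0.76 in vehicle TG, -0.97 and 0.17 in ISO TG, 1.74 and 1.58 in vehicle DTG, and 0.93 and 1.32 in ISO DTG. No order of the sexes was shared by the 4 groups, and with 1 female per group sex was not tested.

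Of the 12 mice, 2 were harvested at 12 weeks, vehicle TG 3 and ISO DTG 3. After scaling, each had the lowest Acaa2 level of its group (-0.31 and 0.93). Before scaling, the signal of vehicle TG 3 was 342 intensity units, above vehicle TG 1 at 217. That of ISO DTG 3 was 299, close to ISO DTG 2 at 301. The ISO TG mice with the low levels of -0.97 and -1.14 were 9 and 10 weeks old. The part of age was not tested.

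Actb, the cytoplasmic actin often used as a reference transcript, was at 3.33 to 4.53 on ISO TG 1 and 2 and vehicle TG 3 and at 1.50 to 2.97 on the other 9 arrays. Its r with Acaa2 was -0.60 over the 12 arrays and 0.81 over the 9 arrays, so the sign of this relation was that of the arrays included.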
